A study of Homo sapiens with 10 samples.

Results

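The 10 tubulin isotype genes that EA.hy926 and HMEC-1 cells share were examined, out of 60448 genes in the count table. They were taken by gene symbol, through the Ensembl identifiers of GENCODE 44, from a list drawn up with earlier results of these data known. They comprise 4 α-tubulin genes (TUBA1A, TUBA1B, TUBA1C and TUBA4A) and 6 β-tubulin genes (TUBB, TUBB2A, TUBB2B, TUBB3, TUBB4B and TUBB6). All 10 passed the filter on low counts, as did 16310 genes in total.

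RNA-seq was performed on untreated cells of both wild-type lines, with 5 replicates each, grown to a confluent monolayer. EA.hy926 arose by fusing umbilical vein endothelium with the lung carcinoma line A549, and it was grown in Advanced DMEM with 5% FBS. HMEC-1 is a human dermal microvascular endothelial line that carries the SV40 large T antigen, and it was grown in MCDB 131 with 10% FBS, hydrocortisone at 1 μg/mL and epidermal growth factor at 10 ng/mL. Each line is a single immortal line, and effects of line and medium cannot be told apart.

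Microtubules are hollow polymers of α/β-tubulin heterodimers that give a cell its tracks for transport, its mitotic spindle and part of its shape. Vertebrate genomes encode several isotypes of each subunit, whose bodies are nearly alike and which differ most in the acidic C-terminal tail. The tail faces outward from the microtubule, where it is glutamylated, glycylated and, in most α-tubulins, stripped of its last tyrosine, and where motors and associated proteins bind. The amount of tubulin mRNA is also set by the protein itself: TTC5 recognizes the first residues of a nascent tubulin chain and, when soluble tubulin is in excess, directs decay of the mRNA that is being translated.

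The last 20 codons before the stop codon are shown for the β genes on which the comparison turns, because this is where isotypes differ, with glutamate codons in capitals. They were read from the GENCODE 44 MANE Select transcripts (GRCh38), and each lies within the last coding exon, at chr9:137243494-137243553 (TUBB4B), chr6:30724335-30724394 (TUBB), chr18:12326068-12326127 (TUBB6) and chr16:89935742-89935801 (TUBB3) on the plus strand and at chr6:3153866-3153925 (TUBB2A) on the minus strand.
TUBB4B: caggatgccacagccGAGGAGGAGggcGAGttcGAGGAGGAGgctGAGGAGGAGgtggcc
TUBB: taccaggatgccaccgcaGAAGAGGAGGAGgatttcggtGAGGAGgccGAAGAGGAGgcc
TUBB6: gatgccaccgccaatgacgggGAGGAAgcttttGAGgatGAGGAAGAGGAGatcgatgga
TUBB2A: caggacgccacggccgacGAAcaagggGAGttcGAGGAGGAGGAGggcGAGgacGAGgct
TUBB3: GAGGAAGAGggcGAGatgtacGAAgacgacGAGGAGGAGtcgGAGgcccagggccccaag
These tails held 10, 9, 7, 8 and 9 glutamate codons in the order shown. Counted from the end without gaps, TUBB had the same base as TUBB4B at 32 of 60 positions and as TUBB6 at 27. The tails of TUBB and TUBB4B are shifted against each other, so these counts do not measure identity after alignment. The tail of TUBB2B, not shown, had the same base as that of TUBB2A at 59 of 60 positions.

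The stretch that TTC5 reads lies at the other end. With codons 2 to 4 in capitals, it is shown for 1 α gene and for the 2 most abundant β genes in HMEC-1, as the first 12 coding bases.
TUBA1A: atgCGTGAGTGC
TUBB: atgAGGGAAATC
TUBB4B: atgAGGGAAATC
Codons 2 to 4 encoded arginine, glutamate and cysteine in all 4 α members and arginine, glutamate and isoleucine in all 6 β members. Of 12 other tubulin genes, 8 began with one of these triplets, and the 4 that did not were TUBG1, TUBG2, TUBD1 and TUBE1, the γ-, δ- and ε-tubulins.

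Total counts were 34846046 to 39899324 per library in EA.hy926 against 33391640 to 43877224 in HMEC-1, and 3 counts corresponded to at most 0.0904 CPM (counts scaled to library size with TMM factors). Within a line, log2 CPM values of any 2 libraries correlated across genes with r of at least 0.995, and between lines with at most 0.807. Of 10 endothelial markers, all were detected in both lines except EMCN, with 0 to 2 counts in EA.hy926, and their summed level was 4681 to 5315 CPM in EA.hy926 and, in HMEC-1, 1691 to 1742 CPM. Of 10 epithelial markers, the defining gene CDH1 was at 0 to 1 counts in both lines, while the markers summed to 1275 to 1389 CPM in EA.hy926 and, in HMEC-1, 429 to 491 CPM. KRT8 and EPCAM were called higher in EA.hy926, and KRT19, CLDN7 and CLDN4 were called lower. Summed fibroblast markers reached 479 to 508 CPM in HMEC-1, mostly from COL1A1, and 49.6 to 55.5 CPM in EA.hy926, mostly from FAP, and DCN and LUM had 0 counts in both. The part of other cell types' programmes in the results below was not tested. As these are bulk libraries, fewer cells with a transcript and less of it per cell cannot be told apart.

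In both lines the mRNA of the 10 genes came almost wholly from the same 6, TUBA1A, TUBA1B and TUBA1C for α and TUBB, TUBB4B and TUBB6 for β, but in different proportions. Per kilobase of merged exon length, TUBA1A dominated α and TUBB4B dominated β in EA.hy926, whereas in HMEC-1 the α mRNA was spread over 3 genes and TUBB rivalled TUBB4B. To describe composition, counts were divided by the merged exon length of each gene and given as a share of the summed α or β members in each library. The shares of a class sum to 100%, so they move together, and they are given as a description without a test.

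**Figure D1:**
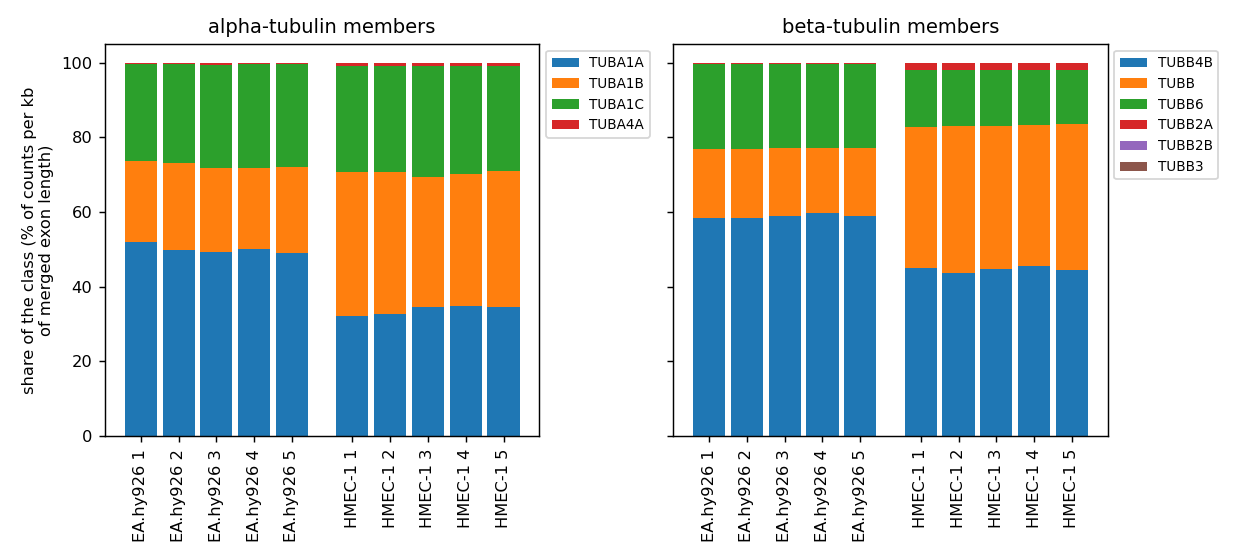
Isotype composition of each library: the y axis gives each gene's share (%) of the summed counts per kilobase of merged exon length of the 4 α (left) or 6 β (right) genes, with 1 bar per replicate. TUBA1A takes 49.0% to 52.0% of α in EA.hy926 against 32.2% to 34.9% in HMEC-1, and TUBB takes 17.5% to 18.5% and 37.7% to 39.5% of β.

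TUBA1A made up 50.1% ± 1.14 (SD, n = 5) of α in EA.hy926 against 33.8% ± 1.26 in HMEC-1. TUBA1B made up 22.4% ± 0.746 and 36.6% ± 1.57. TUBA1C differed little, with 27.0% ± 0.828 and 28.7% ± 0.574. TUBA4A made up 0.490% ± 0.0677 and 0.872% ± 0.0805.

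Among β genes, TUBB4B held 58.9% ± 0.584 in EA.hy926 against 44.7% ± 0.736 in HMEC-1. TUBB held 18.1% ± 0.385 and 38.5% ± 0.802, and TUBB6 held 22.7% ± 0.183 and 14.9% ± 0.263. With this divisor TUBB6 was the second β isotype of EA.hy926 and the third of HMEC-1, and TUBB the reverse. TUBB2A held 0.231% ± 0.0316 in EA.hy926 but 1.91% ± 0.0846 in HMEC-1. TUBB3 (0.0498% ± 0.00490 and 0.0124% ± 0.00342) and TUBB2B (0.0169% ± 0.00334 and 0.0224% ± 0.00677) were the lowest in both lines with this divisor. The ranges of the shares did not overlap between lines for 9 of 10 genes, TUBB2B being the exception. A background of shares was not computed. By CPM, the ranges did not overlap for 8 of 10 members and for 77.4% of all tested genes.

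The shares depend on what each count is divided by, and 5 other divisors were tried (the longest coding transcript, the MANE Select transcript, coding bases, no division, and the 100-base windows of the MANE Select transcript that occur in no other gene). For TUBA1A, TUBA1B, TUBB, TUBB4B and TUBB6 the direction between the lines was the same with each divisor and the ranges never overlapped. The order within a line was less secure. In EA.hy926 TUBB and TUBB6 overlapped with coding bases (26.8% to 28.0% for TUBB, 27.1% to 27.4% for TUBB6). In HMEC-1 TUBB exceeded TUBB4B with 4 of these divisors, by as much as 52.0% ± 0.826 against 30.2% ± 0.649 with coding bases. With unshared windows TUBA1B became the largest α gene in both lines (45.1% ± 1.09 in EA.hy926 against 62.8% ± 1.62 in HMEC-1). That divisor drops windows matched on either strand but keeps all counts. For TUBA1B, 999 of 1528 windows matched the antisense RNA TUBA1B-AS1, so its first place there rests on the divisor. TUBA1C overlapped between lines with the longest coding transcript and turned direction with unshared windows (16.1% ± 0.537 in EA.hy926 against 14.6% ± 0.496 in HMEC-1). The level of the low β genes also rested on the divisor. With unshared windows TUBB3 held 1.72% ± 0.169 in EA.hy926, above TUBB2A with 0.556% ± 0.0753. In HMEC-1 the same windows gave 0.403% ± 0.110 for TUBB3 and 4.32% ± 0.192 for TUBB2A.

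**Figure D2:**
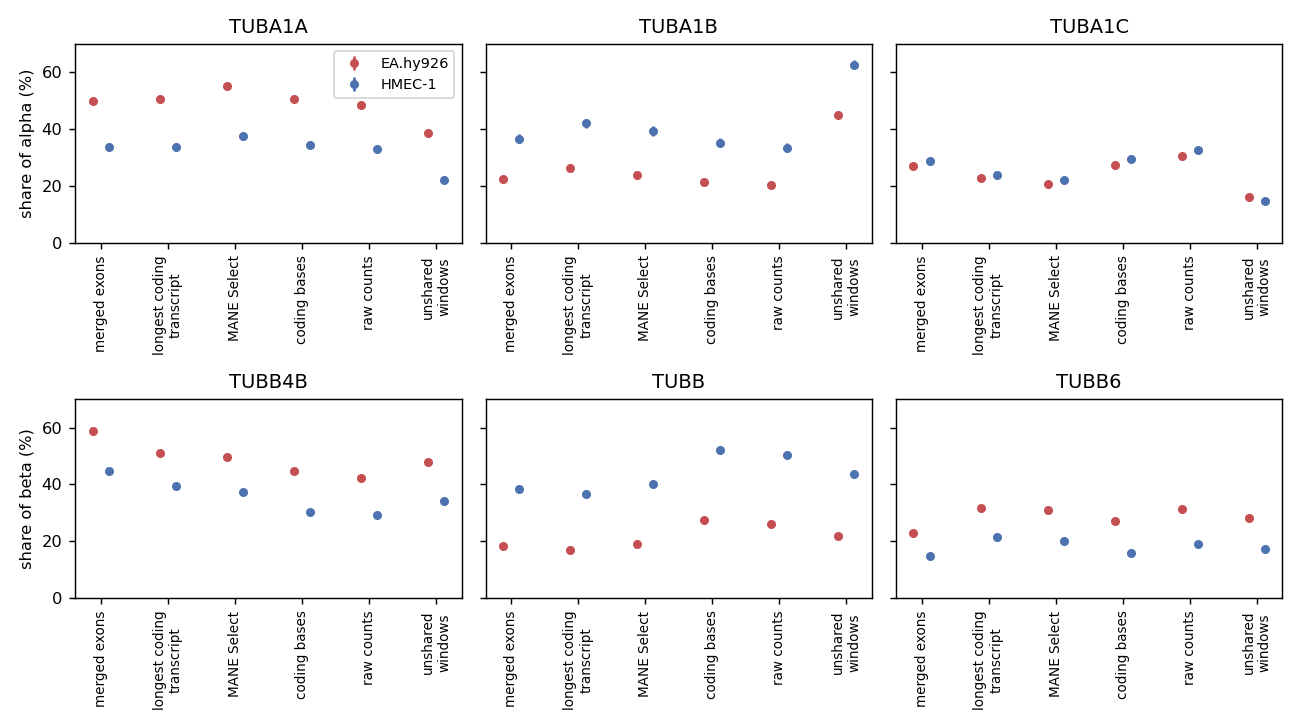
Shares of the 6 main genes in their class (y axis, %) under 6 divisors (x axis), as mean and SD of 5 replicates, EA.hy926 in red and HMEC-1 in blue. The lines keep their order for every gene except TUBA1C, whereas the height of TUBA1B and TUBB moves with the divisor.

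Ratios between genes of a class show the same shift without the other members. The level of TUBA1A per kilobase was 2.24 ± 0.116 times that of TUBA1B in EA.hy926 (range 2.13 to 2.40) and 0.925 ± 0.0724 times in HMEC-1 (0.837 to 0.993). TUBB stood at 0.308 ± 0.00955 of TUBB4B in EA.hy926 and at 0.862 ± 0.0317 in HMEC-1. The ratio of TUBB to TUBB6 was 0.798 ± 0.0107 in EA.hy926 against 2.58 ± 0.0772 in HMEC-1. The ratio of TUBB4B to TUBB6 differed less, at 2.59 ± 0.0467 and 2.99 ± 0.0786. None of these ranges overlapped between the lines.

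Summed over the members per kilobase of merged exon length, α mRNA was higher in EA.hy926 (265 ± 4.11 CPM per kb against 213 ± 7.91). With the same divisor β mRNA was higher in HMEC-1 (724.6 ± 26.2 in EA.hy926 against 935.5 ± 11.4). Neither pair of ranges overlapped, but these totals were not computed with transcript, coding or unshared-window lengths. The ratio of α to β was 0.366 ± 0.0163 in EA.hy926 against 0.228 ± 0.00858 in HMEC-1. Its size cannot be read as subunit stoichiometry, since it ran from 0.366 to 0.822 in EA.hy926 and from 0.228 to 0.565 in HMEC-1 over the divisors, though it was higher in EA.hy926 with each.

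The order of levels per kilobase of merged exon length in EA.hy926 was TUBB4B (426.7 ± 18.9 CPM per kb), TUBB6 (164.5 ± 4.96), TUBA1A (132.7 ± 2.84), TUBB (131.3 ± 3.22), TUBA1C (71.7 ± 2.16), TUBA1B (59.5 ± 2.87), TUBB2A (1.67 ± 0.182), TUBA4A (1.30 ± 0.180), TUBB3 (0.362 ± 0.0451) and TUBB2B (0.122 ± 0.0253). TUBA1A and TUBB overlapped, as did TUBB2A and TUBA4A, and the other neighbours did not. In HMEC-1 the order was TUBB4B (417.7 ± 6.60), TUBB (360.0 ± 9.85), TUBB6 (139.6 ± 3.40), TUBA1B (78.1 ± 6.13), TUBA1A (71.9 ± 1.76), TUBA1C (61.2 ± 1.59), TUBB2A (17.8 ± 0.768), TUBA4A (1.86 ± 0.171), TUBB2B (0.210 ± 0.0637) and TUBB3 (0.116 ± 0.0322). Here TUBA1B overlapped with TUBA1A and TUBB2B with TUBB3. By level per kilobase among 16109 ranked genes, TUBB4B stood at rank 59 in EA.hy926 against 44 in HMEC-1, TUBB at 268 and 53, and TUBB2A at 10079 and 2527.

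**Figure D3:**
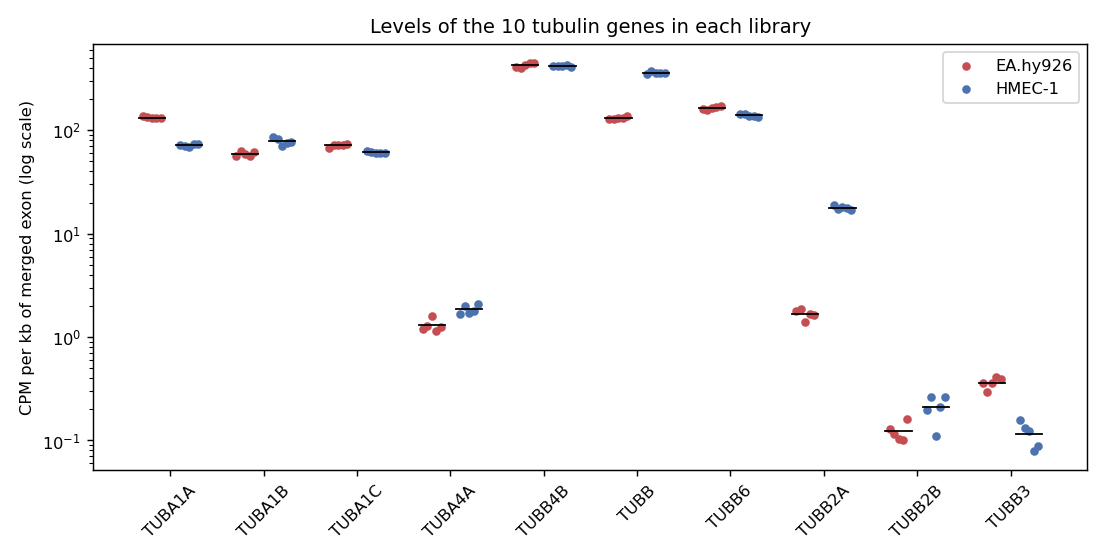
Level of each gene in each library (points, CPM per kilobase of merged exon length, log scale) with the mean of 5 replicates (line), EA.hy926 in red and HMEC-1 in blue. TUBB and TUBB2A lie lower in EA.hy926, TUBB3 and TUBA1A lie higher, and the points of TUBB4B and TUBB2B overlap between the lines.

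The lines were then compared gene by gene, with the quasi-likelihood test of edgeR, adjusting p by Benjamini-Hochberg over all 16310 genes. A gene was called when its adjusted p was under 0.05 and its absolute log2FC (EA.hy926 over HMEC-1) above 1. TUBB2A and TUBB were called lower in EA.hy926 and TUBB3 higher, which is 3 of 10 members beside 35.5% of all tested genes (16.4% lower and 19.1% higher). By adjusted p alone, 4 members were higher and 5 lower in EA.hy926, 9 of 10 beside 85.8% of all genes (42.6% higher and 43.3% lower). The median log2FC of the members was -0.18, and that of all tested genes -0.01. The CPM ranges of 8 of 10 members did not overlap between lines, near the background of 77.4%.

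TUBB (ENSG00000196230, chr6:30717435-30725538, plus strand), the class I β-tubulin found in nearly all tissues, had 526, 522, 537, 531 and 555 CPM in the EA.hy926 replicates and 1429, 1533, 1455, 1444 and 1467 CPM in those of HMEC-1. Every HMEC-1 library was far above every EA.hy926 library. The log2FC was -1.46 (SE 0.0255, adjusted p = 4.5e-22 by edgeR), a 2.74-fold difference of mean CPM. Of the 2416 windows of 100 bases of the TUBB transcript, 440 occur in ENSG00000272540, annotated on the opposite strand. That RNA had 1 to 3 counts in EA.hy926 against 2 to 4 in HMEC-1. The processed pseudogene TUBBP1, which holds 131 of the windows, had 77 to 110 counts in EA.hy926 against 248 to 304 in HMEC-1 (log2FC -1.52, SE 0.101, adjusted p = 7.1e-12 by edgeR).

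TUBB2A (ENSG00000137267, chr6:3153497-3157544, minus strand), a class II β-tubulin known best from brain, had 5.20, 5.42, 4.04, 4.89 and 4.72 CPM in EA.hy926 and, in HMEC-1, 54.9, 50.6, 52.5, 52.0 and 49.0 CPM. Its log2FC of -3.42 (SE 0.0572, adjusted p = 2.1e-22 by edgeR) corresponded to a 10.7-fold difference, the largest among the members. TUBB2B (ENSG00000137285, chr6:3223324-3231730, minus strand), its neighbour 65779 bases away and mutated in cortical malformations, was near the limit of detection with 15 to 25 counts in EA.hy926 against 21 to 45 in HMEC-1. Its log2FC was -0.77 (SE 0.245, adjusted p = 0.0066 by edgeR) and its CPM ranges overlapped, at 0.416 to 0.674 and 0.455 to 1.10 CPM. The coding sequences of the pair are 98.1% identical, and 814 of the 1517 windows of TUBB2A occur in TUBB2B, so the division of reads between them is uncertain.

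TUBB3 (ENSG00000258947, chr16:89921392-89938761, plus strand), the class III isotype used as a marker of neurons and raised in many carcinomas, had 98, 72, 93, 117 and 108 counts in EA.hy926 against 41, 40, 42, 24 and 25 counts in HMEC-1. At 2.69 ± 0.335 CPM and 0.861 ± 0.239 CPM the groups did not overlap, and the log2FC was 1.65 (SE 0.168, adjusted p = 8.7e-09 by edgeR). Of the 1607 windows of TUBB3, 1487 lie also in ENSG00000198211, an annotated protein-coding gene that overlaps it on the same strand and had 0 counts in every library. How reads common to both were assigned is not given in the sources used here, so the level of TUBB3 against other isotypes is uncertain. Summed neuronal markers were 70.5 to 78.2 CPM in EA.hy926 and, in HMEC-1, 3.42 to 4.02 CPM, led by SYT1 in EA.hy926 and INA in HMEC-1, while ELAVL4 and STMN2 had 0 counts in both lines and SNAP25 at most 2 counts.

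TUBB4B (ENSG00000188229, chr9:137241287-137243707, plus strand), the class IVb isotype of most cells and of cilia, had 832, 824, 882, 905 and 903 CPM in EA.hy926 and, in HMEC-1, 853, 846, 851, 871 and 834 CPM. The groups overlapped, and the log2FC was 0.03 (SE 0.0279, adjusted p = 0.30 by edgeR). Scaled by library totals it was -0.10 (adjusted p = 0.0027), with adjusted p from 0.0027 to 0.77 over 18 alternatives (glmTreat left out), so its direction rests on the scaling.

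TUBB6 (ENSG00000176014, chr18:12307669-12344320, plus strand), the class V isotype whose excess perturbs microtubule arrays, had 630, 626, 655, 658 and 673 CPM in EA.hy926 and, in HMEC-1, 562, 565, 548, 544 and 532 CPM. The log2FC was 0.24 (SE 0.0258, adjusted p = 2.6e-08 by edgeR), or 0.10 when scaled by library totals. No window of 100 bases of its transcript occurred in another gene.

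TUBA1A (ENSG00000167552, chr12:49184686-49189080, minus strand), the main α-tubulin of developing neurons, had 522, 517, 499, 499 and 502 CPM in EA.hy926 and, in HMEC-1, 274, 271, 267, 281 and 282 CPM. The groups were well apart. The log2FC was 0.88 (SE 0.0248, adjusted p = 1.5e-18 by edgeR), a 1.85-fold difference under the fold threshold.

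TUBA1B (ENSG00000123416, chr12:49127782-49131397, minus strand), a broadly expressed α-tubulin, had 203, 225, 213, 202 and 220 CPM in EA.hy926 and, in HMEC-1, 306, 295, 251, 267 and 277 CPM. The log2FC was -0.39 (SE 0.0434, adjusted p = 3.1e-08 by edgeR). TUBA1C (ENSG00000167553, chr12:49188736-49274600, plus strand), also broadly expressed, had 303, 319, 324, 324 and 327 CPM in EA.hy926 and, in HMEC-1, 284, 274, 266, 271 and 268 CPM. Its log2FC of 0.23 (SE 0.0265, adjusted p = 6.6e-08 by edgeR) was 0.09 when scaled by library totals. TUBA4A (ENSG00000127824, chr2:219249710-219277902, minus strand), known from platelets and neurons, was low, at 4.80 ± 0.665 CPM in EA.hy926 and 6.86 ± 0.631 CPM in the HMEC-1 libraries, with a log2FC of -0.52 (SE 0.0925, adjusted p = 2.7e-05 by edgeR). Of the 1950 windows of TUBA4A, 529 occur in STK16, annotated on the opposite strand. STK16 had 613 to 755 counts in EA.hy926 against 514 to 665 in HMEC-1, so the level of TUBA4A is uncertain.

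The 3 TUBA1 genes lie together on chromosome 12, and the annotated ends of TUBA1A and TUBA1C overlap by 345 bases on opposite strands. Their coding sequences are 95.9% to 97.2% identical. TUBA1B is the least certain of them, because 1086 of its 1528 windows occur in other genes, counting both strands. Of its windows, 999 occur in the antisense RNA TUBA1B-AS1 (7 to 12 counts in EA.hy926 against 1 to 11 in HMEC-1) and 490 in other members. Of the windows of TUBA1A and TUBA1C, 21.5% and 31.6% were shared, against 4.71% for TUBB4B. All annotated α pseudogenes together had 66 to 99 counts in EA.hy926 against 155 to 174 in HMEC-1, at most 0.542% of the class, and β pseudogenes at most 0.269%. TUBA5P was lower in EA.hy926 (log2FC -2.72, SE 0.222, adjusted p = 2.3e-10 by edgeR).

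**Figure D4:**
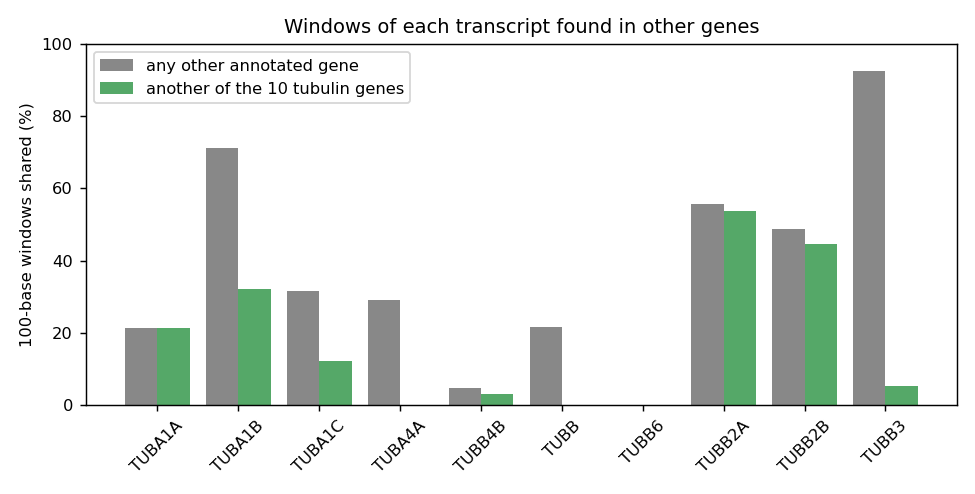
Share of the 100-base windows of each MANE Select transcript (y axis, %) that also occur, on either strand, in a transcript of any other gene (grey) or of another of the 10 genes (green). TUBB6 shares none and TUBB4B 4.71%, whereas TUBB3 shares 92.5%, nearly all with an overlapping gene, and TUBB2A 55.6%, mostly with TUBB2B.

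The promoters of TUBB and TUBB2A, the β genes called lower in EA.hy926, are shown from 250 bases before to 50 bases after the RefSeq start (GRCh38.p14). Capitals mark, on either strand, the CCAAT box, the GC box GGGCGG and the TATA box sequence TATAAA. That of TUBB lies at chr6:30720102-30720401 on the plus strand and that of TUBB2A at chr6:3157495-3157794 on the minus strand.
TUBB: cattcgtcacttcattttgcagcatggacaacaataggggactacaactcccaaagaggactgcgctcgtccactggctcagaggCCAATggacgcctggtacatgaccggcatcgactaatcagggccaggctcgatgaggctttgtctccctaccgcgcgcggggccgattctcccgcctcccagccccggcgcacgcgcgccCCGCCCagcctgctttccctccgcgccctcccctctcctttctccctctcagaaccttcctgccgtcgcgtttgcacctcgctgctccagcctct
TUBB2A: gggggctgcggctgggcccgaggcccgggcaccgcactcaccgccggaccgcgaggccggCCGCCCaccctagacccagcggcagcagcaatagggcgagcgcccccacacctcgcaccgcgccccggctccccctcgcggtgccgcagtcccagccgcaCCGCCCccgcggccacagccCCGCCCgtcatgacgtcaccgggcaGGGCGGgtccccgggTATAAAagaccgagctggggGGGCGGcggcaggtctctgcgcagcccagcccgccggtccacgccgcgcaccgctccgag
TUBB held 1 CCAAT and 1 GGGCGG, and TUBB2A held 5 GGGCGG and 1 TATAAA. All 10 genes matched a promoter. CCAAT occurred in 5 of 10 and in 35.7% of 27305 promoters, GGGCGG in 5 of 10 and in 44.6%, and TATAAA in TUBB2A alone of the members and in 11.95%. A match is a description of the sequence and not of binding.

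Of 12 other tubulin genes, 5 could be tested. TUBG1, the γ-tubulin that nucleates microtubules, was the 1 called of the 5 (background 35.5% of all genes tested, 16.4% called lower in EA.hy926), at 48.9 ± 1.91 CPM in EA.hy926 and 108.7 ± 1.91 CPM in the HMEC-1 libraries (log2FC -1.15, SE 0.0298, adjusted p = 3.7e-19 by edgeR). Its copy TUBG2 (-0.43) and the centriolar δ-tubulin TUBD1 (-0.55) were lower by adjusted p alone, and the ε-tubulin TUBE1 (0.17) higher, so 4 of 5 passed by adjusted p beside 85.8% of all genes tested. TUBB1, the platelet isotype, had 6 to 15 counts in EA.hy926 against 7 to 13 in HMEC-1 (log2FC 0.07, adjusted p = 0.84 by edgeR). TUBA3C, TUBA3E and TUBAL3 had 0 counts in all libraries, which allows up to 0.0904 CPM, and TUBA3D, TUBA8, TUBB4A and TUBB8 at most 10, so the germline, muscle and brain isotypes were not detectable or barely so at this depth.

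The nucleation list, which holds the γ-tubulin ring complex and minus-end proteins, had 14 tested genes, with a median log2FC of -0.29. By adjusted p, 3 were higher and 9 lower in EA.hy926, 12 of 14 beside 85.8% of all genes tested (42.6% higher and 43.3% lower). The 3 called genes were ring complex components and all lower in EA.hy926. That is 3 of 14, beside 35.5% of all genes tested called in either direction and 16.4% called lower. TUBGCP4 had 9.79 ± 1.25 CPM in EA.hy926 and 31.7 ± 1.70 in the HMEC-1 libraries (log2FC -1.70, SE 0.0657, adjusted p = 4.6e-16 by edgeR). Exons of other genes cover 34.3% of the exonic bases of TUBGCP4, so its level is uncertain. MZT1 had 34.5 ± 1.56 and 99.1 ± 3.63 CPM (log2FC -1.52, SE 0.0349), and TUBGCP3 29.5 ± 0.969 and 79.5 ± 2.69 CPM (log2FC -1.43, SE 0.0333). The other core subunit TUBGCP2 differed by -0.16.

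All 10 proliferation markers, which include MKI67, TOP2A and CDK1, were lower in EA.hy926 by adjusted p (43.3% of all genes tested) and 3 were called lower (16.4% of all genes tested), with a median log2FC of -0.76. Their summed level was 1937 to 2053 CPM in EA.hy926 and, in HMEC-1, 3333 to 3503 CPM. TUBB, TUBB2A, TUBG1, TUBGCP3, TUBGCP4 and MZT1, all named here as called lower in EA.hy926, share the direction of these markers by that choice. Of the 10 members, 5 moved that way by adjusted p and 4 the other way (TUBA1A, TUBA1C, TUBB3 and TUBB6). The part of proliferation in these differences was not tested.

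Newly made tubulin is folded by prefoldin and the chaperonin CCT and assembled by the cofactors TBCA to TBCE with ARL2. Of 19 genes tested, 7 were higher and 10 lower in EA.hy926 by adjusted p, 17 of 19 beside 85.8% of all genes, with a median log2FC of -0.08. The 8 CCT subunits lay between -0.37 (CCT5) and 0.24 (CCT2). The 2 called genes went opposite ways, the prefoldin subunit PFDN6 lower (25.6 ± 1.32 CPM in EA.hy926 and 53.8 ± 2.61 in the HMEC-1 libraries, log2FC -1.07, SE 0.0414) and ARL2 higher (52.7 ± 2.38 and 23.7 ± 1.35 CPM, log2FC 1.16, SE 0.0425). Of the autoregulation factors, TTC5 was higher in EA.hy926 (40.0 ± 1.03 CPM against 28.5 ± 0.671, log2FC 0.49, SE 0.0341, adjusted p = 1.5e-11 by edgeR), while its partner SCAPER (-0.32) and the deadenylase scaffold CNOT1 (-0.46) were lower. CNOT11 had a log2FC of -0.02 (adjusted p = 0.62 by edgeR), and none of the 4 was called.

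The tail-modifying enzymes had 19 tested genes, with a median log2FC of -0.37. By adjusted p, 8 were higher and 11 lower in EA.hy926, 19 of 19 beside 85.8% of all genes tested (42.6% higher and 43.3% lower). Of the 19, 4 were called, beside 35.5% of all genes. VASH1, a vasohibin that removes the α-tubulin tyrosine, was higher in EA.hy926 (30.1 ± 1.74 CPM against 10.5 ± 0.361, log2FC 1.52, SE 0.0487, adjusted p = 1.8e-17 by edgeR), and its relative VASH2 was lower (0.269 ± 0.120 against 1.12 ± 0.214, log2FC -2.02, SE 0.263). MATCAP1, another such carboxypeptidase, had a log2FC of 0.84, and the ligase TTL, which restores the tyrosine, of -0.70 (72.9 ± 1.96 CPM in EA.hy926 and 118.5 ± 3.15 in the HMEC-1 libraries), both by adjusted p alone. The polyglutamylase TTLL7 had 0 counts in EA.hy926 against 33 to 51 in HMEC-1, at least 12.3-fold lower against a floor of 3 counts per library. The deglutamylase AGBL2 had 0 to 1 counts in EA.hy926 against 16 to 30 in HMEC-1, at least 6.16-fold lower against the same floor. The acetyltransferase ATAT1 (-0.78) and the deacetylase SIRT2 (-0.72) were lower by adjusted p alone. The deacetylase HDAC6 (0.19) was higher and the vasohibin-binding SVBP (-0.40) lower, also by adjusted p alone.

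Of 33 tested microtubule-associated genes, 8 were called higher and 6 lower in EA.hy926, 14 of 33 beside 35.5% of all genes, with a median log2FC of -0.10. MAPRE2, an end-binding protein, had 141 ± 2.49 CPM in EA.hy926 and 39.3 ± 0.892 in the HMEC-1 libraries (log2FC 1.85, SE 0.0272, adjusted p = 2.4e-23 by edgeR). MAP6, which stabilizes cold-resistant microtubules, had 112 to 158 counts in EA.hy926 against 1 to 9 in HMEC-1 (log2FC 4.87, SE 0.229), and the dendritic MAP2 65 to 87 and 8 to 27 counts (log2FC 2.40, SE 0.219). The doublecortin-like kinase DCLK1 had 0 to 1 counts in EA.hy926 against 119 to 197 in HMEC-1, at least 41.3-fold lower against the floor of 3 counts. MAP7 (log2FC -2.58) and MAP7D2 (-2.43), which recruit kinesin-1, were lower in EA.hy926 from at most 38 counts.

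**Figure D5:**
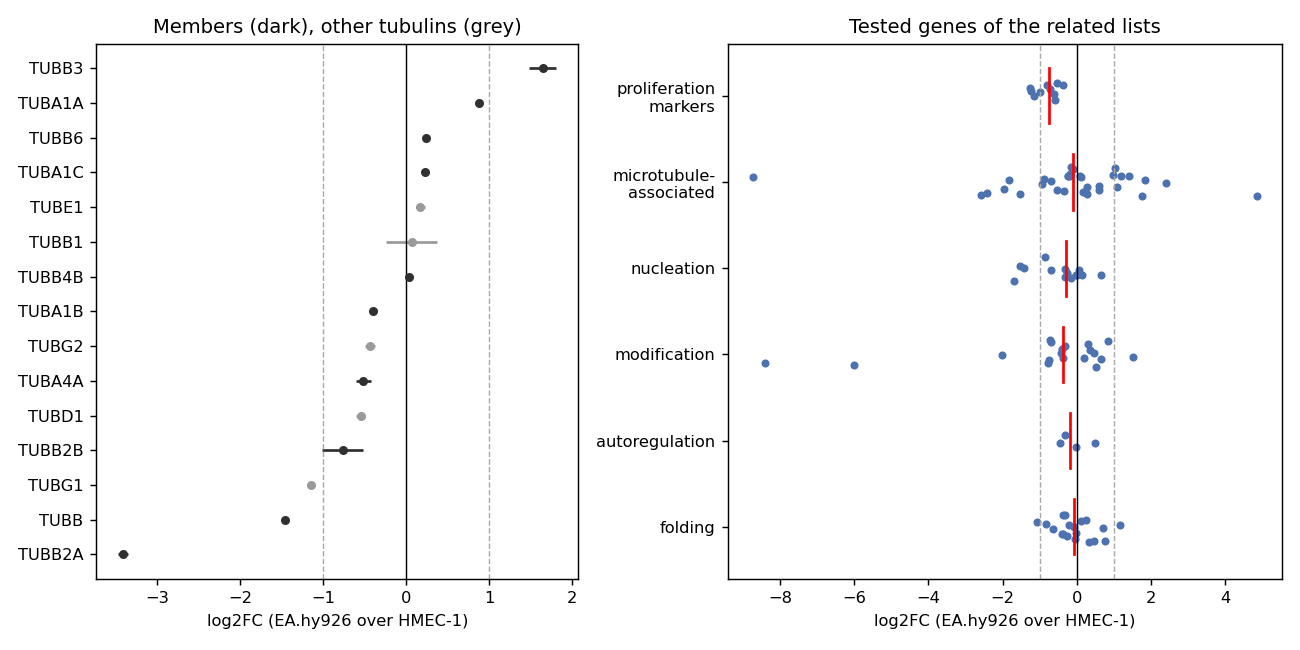
Left, log2FC (EA.hy926 over HMEC-1) with its SE for the 10 members (dark) and the 5 tested other tubulin genes (grey). Right, log2FC of each tested gene of the related lists (points) with the list median (red line), where fitted values of TTLL7, AGBL2 and DCLK1 at the far left rest on 0 to 1 counts in EA.hy926, and dashed lines mark -1 and 1.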

How the data were processed

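RNA-seq data of both untreated lines (5 independent biological replicates each, per the paper's methods) were analysed. The authors enriched polyadenylated RNA, sequenced it on an Illumina NovaSeq and aligned reads to GRCh38 with HISAT2. The values they deposited are raw counts per gene, made with HTSeq according to the methods and with featureCounts according to the submitters' processing notes, which also name fastp and DESeq2. The annotation release, the strand setting and the handling of reads with several matches are not given in the sources used here. This also limits PFDN6, VASH1 and ARL2, where exons of other genes cover 27.3%, 21.8% and 17.9% of the exonic bases. RNA quality is given only as a minimum score of 6.8, and coverage along the transcripts, on which values per kilobase depend, was not examined.

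Library totals ranged from 33391640 to 43877224 counts. Floors of 3 counts cover counting error only. Lines and replicate numbers were taken from the sample labels. Symbols, coordinates and exon lengths came from GENCODE 44 by Ensembl identifier (56434 of 60448 genes matched). Low counts were removed by filterByExpr (10 per library, 15 in total), factors came from TMM, and the lines were tested in R 4.3.3 by edgeR 4.0.16 (glmQLFit, then glmQLFTest) without covariates. The SE of a log2FC is its absolute value over the square root of F. Windows and identities were computed with Biopython 1.88, and promoters came from RefSeq. The test was tried on simulated counts first.

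All 10 members and 12 other tubulin genes were named, and of each pathway list up to 3 called genes with the highest and the lowest log2FC that had at least 10 counts in every library of the higher line. The uncalled genes given with values (in folding, autoregulation, nucleation and modification), the markers and the pseudogenes were chosen after their values were seen. Members and lists were chosen with earlier results of these data known. TBCE was not analysed here, and the ends of the α coding sequences are not reported here. Alternatives were DESeq2 1.42.0, limma-voom (limma 3.58.1), 2 other filters, 3 other scalings, a replicate block, glmTreat, leaving out each library, and other lengths. The MANE Select and unshared-window lengths and the alternatives of the α to β ratio were added after seeing the data.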

Additional observations from a re-analysis of the deposited data

Results flagged for a closer look

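In EA.hy926, replicate 3 stood apart for TUBA4A. It had 5.95 CPM, while the other 4 libraries had 4.27 to 4.70 CPM, and the gap took 0.743 of the range of the group. Its TUBA4A share of α was 0.609%, against 0.443% to 0.471% in the others. These were 2 of 40 groups checked for a single distant library, of which chance flags about 1 in 20, and both rest on 209 counts against 156 to 173.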

How the results depend on the processing

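TUBB, TUBB2A and TUBB3 remained the called members in each fit, 3 of 10, while the count of called genes went from 5784 to 9312 with no filter on low counts and to 3255 with at least 10 counts in every library. Leaving out each library gave 5945 to 6000 called genes and 3 members each time. Of 190 log2FC values of the members under alternatives, 188 kept direction and side of the threshold. TUBB4B was the exception, at -0.10 (adjusted p = 0.0027, edgeR) with library totals and 0.07 (adjusted p = 0.036) with upper quartile factors. Library totals shifted the median log2FC of all genes by -0.13 and raised the share of calls lower in EA.hy926 from 46.2% to 52.3%. Of 220 shares, 85 moved by more than 1 SD. The α to β ratio in EA.hy926 and HMEC-1 was 0.507 and 0.285 with raw counts, 0.458 and 0.297 with the longest coding transcript, 0.458 and 0.251 with coding bases, 0.492 and 0.300 with MANE Select lengths, and 0.822 and 0.565 with unshared windows. TUBA4A, TUBB2B and TUBB3, at 15 to 300 counts, are limited by depth.

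Pairing by replicate number was not visible. Same-numbered libraries of the lines deviated together with r of -0.0228 to 0.0389, and differently numbered ones with r of -0.0464 to 0.047. These values cannot show whether same-numbered cultures were handled together. With the replicate number as a block, 5786 genes and 3 members were called, and no member changed side.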
